A study of Mus musculus with 12 samples.

Results

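The direct comparison of IL-36γ with IL-17A rested on 6 libraries of mouse ear, the 3 of the IL-36γ group and the 3 of the IL-17A group, out of 12 libraries in the series. They were chosen by their labels alone. The mice of both groups were female C57BL/6, 8 weeks old, and the labels name no transgene or deletion. Ears of the IL-36γ group received recombinant murine IL-36γ into the skin, at 1 µg for an ear in 5 µL of PBS, and ears of the IL-17A group received recombinant murine IL-17A at the same amount and volume. The methods describe treatment on consecutive days until the ears were collected after 4 days, and the labels do not give the number of injections. The other 6 libraries came from ears given PBS alone or 1 µg of each cytokine together (IL-17A + IL-36γ), and they served as a background. The methods give 5 mice per group, from which 3 libraries were deposited, so every value below has n = 3. Each library is from an individual mouse. The same mass of each protein was injected, whose activity per mass was not compared, and 1 amount and 1 time of collection were measured.

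IL-17A is secreted mainly by T cells and signals through a receptor made of IL-17RA and IL-17RC, which acts largely on keratinocytes and fibroblasts and raises antimicrobial peptides and chemokines for neutrophils. IL-36γ belongs to the IL-1 family, is made by keratinocytes themselves, and signals through the receptor chain encoded by Il1rl2, which also activates NF-κB and is present on keratinocytes, dendritic cells and macrophages. Both cytokines are abundant in psoriatic skin, and the comparison addressed how far the ear responded differently to them.

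Depth ranged from 25293468 to 30823631 counts in the IL-17A group and from 28770645 to 33211507 counts in the IL-36γ group. The keratinocyte genes Krt5 and Krt14 were abundant in all 6 libraries, at 3664 to 5126 CPM (counts of a gene relative to the scaled library size) for Krt5 and 5568 to 8603 CPM for Krt14, so the defining markers of skin were present. Whole ear also holds cartilage and muscle, and the 14 skeletal muscle genes summed to 4086 to 8888 CPM in these 6 libraries. IL-17A replicate 1 stood apart from its group in genes of stressed epidermis: the 4 stress keratin genes summed to 2236 CPM there and to 635 and 578 CPM in the other 2 libraries. The share of counts on mitochondrial genes was 4.305% to 5.664% in the IL-17A group and 3.197% to 3.733% in the IL-36γ group. Its part in the results was not tested. In whole tissue, more cells of a type and more RNA per cell cannot be told apart.

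More genes passed the thresholds for a call with higher values after IL-36γ than with higher values after IL-17A. Of 19408 genes tested, 313 (1.61%) were called, which means an adjusted p-value below 0.05 in the quasi-likelihood test of edgeR and a difference of more than 2-fold. Of these, 242 (1.25% of the genes tested) were higher after IL-36γ and 71 (0.366%) were lower. Without the limit on the fold, 848 genes were higher and 700 lower. At an unadjusted p below 0.05 in the same test, 2380 genes were higher after IL-36γ and 2470 lower. The difference is given below as a log2 fold change, IL-36γ minus IL-17A, with its standard error. Its median size was 1.40 among the genes called higher and 1.35 among those called lower. It was above 3 for 21 of the higher genes and for 2 of the lower genes in absolute value. The 3 libraries of one group lay entirely above those of the other for 312 of the 313 genes, against 15.6% (IL-36γ above) and 16.1% (IL-36γ below) of all genes tested. These are the same values that gave the calls.

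The number of calls depended on single libraries. Without IL-17A replicate 2 it was 69, with 54 higher and 15 lower, and without IL-36γ replicate 2 it was 83, with 69 higher and 14 lower. In 6 fits that each lacked 1 library, 57 of the 313 genes remained called in all of them, 47 higher and 10 lower. The direction of all 313 was the same in each of these 6 fits. That is no separate support, since the 2 groups did not overlap for 312 of them. The genes named below as held in every such fit are among the 57.

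**Figure D1:**
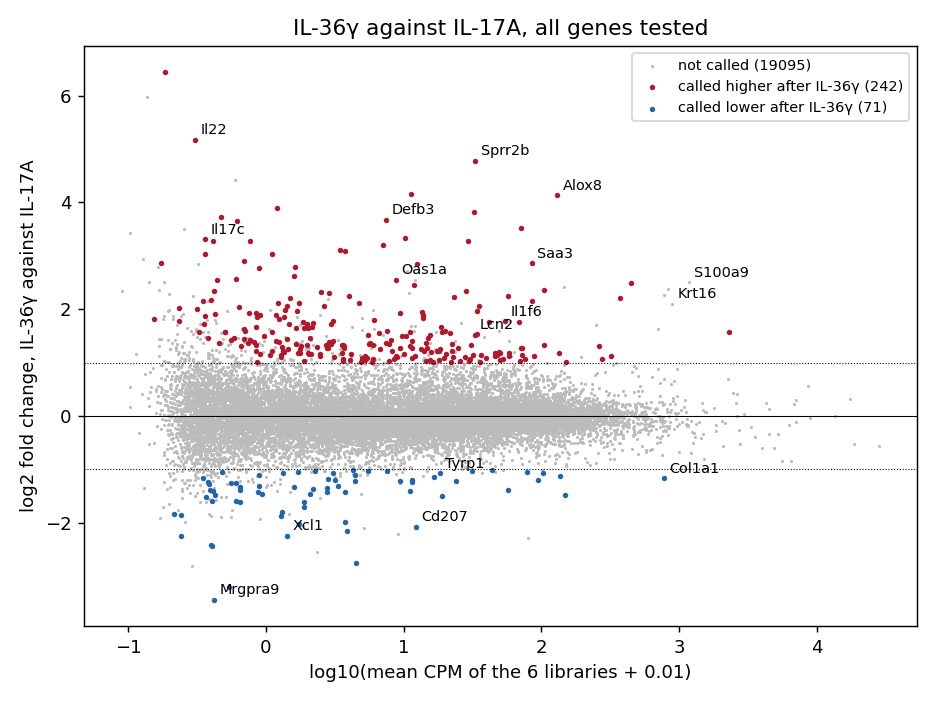
Difference between the IL-36γ and the IL-17A libraries for each gene tested, plotted against its mean level in the 6 libraries. The horizontal axis is log10 of the mean CPM plus 0.01, the vertical axis is the log2 fold change, and dotted lines mark a 2-fold difference. The 242 genes called higher after IL-36γ (red) reach farther from 0 than the 71 called lower (blue).

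Among called genes with a mean of at least 1 CPM in the higher group, Sprr2b had the largest difference. It encodes a small proline-rich protein that is cross-linked into the cornified envelope. It stood at 2.18, 0.199 and 4.79 CPM in the IL-17A libraries and at 58.8, 92.7 and 39.5 CPM in the IL-36γ libraries. All 3 IL-36γ libraries were above all 3 of the other group, with a log2 fold change of 4.78 ± 0.68 (adjusted p = 0.00376), and the call held in every fit without 1 library. Alox8, which encodes a lipoxygenase of the epidermis, was at 11, 10.4 and 21.1 CPM after IL-17A and at 242, 307 and 193 CPM after IL-36γ (4.13 ± 0.59, adjusted p = 0.00376). Alox8 also held in every such fit. Uox, which encodes urate oxidase, was at 2.4, 0.632 and 0.603 CPM after IL-17A and at 15.9, 41.5 and 6.99 CPM after IL-36γ (4.15 ± 0.80). Its adjusted p of 0.0126 became 0.0729 without IL-17A replicate 2 and 0.0534 without IL-36γ replicate 2.

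Lpo encodes lactoperoxidase, an antimicrobial enzyme of secretions. It had a mean of 4.33 ± 4.59 CPM (SD, n = 3) after IL-17A and of 60.7 ± 29.8 CPM after IL-36γ, a log2 fold change of 3.82 ± 0.69 (adjusted p = 0.0104). Sprr2d and Fetub, whose product fetuin-B is an inhibitor of proteases, differed by 3.52 ± 0.62 and 3.32 ± 0.43. These 3 genes held in every fit without 1 library. Cacna2d4, a calcium channel subunit, and the gene model Gm43366 had differences of 3.28 and 3.65 with means under 2 CPM in either group, and both lost the call without IL-17A replicate 2 or IL-36γ replicate 2. Slc26a4, the anion exchanger pendrin, ranged from 0.31 to 5.73 CPM among the IL-36γ libraries, and its log2 fold change of 3.90 became 1.66 (adjusted p = 0.237) without IL-36γ replicate 2. It was not called without any single IL-17A library either. The largest fitted log2 fold change of all calls, 6.44, was that of U90926, chosen after its values were seen. It had no count in the IL-17A libraries and 14, 17 and 2 counts in the IL-36γ libraries, which is at least 9.76-fold higher when 3 counts over the IL-17A group are taken as its floor. Of the 6 fits without 1 library, U90926 kept the call in the one without IL-36γ replicate 3. Cacna2d4, Gm43366, Slc26a4 and U90926 had so few counts after IL-17A that they entered the test through the groups given IL-36γ. Sprr2b had 6 counts in IL-17A replicate 2 and 4, 6 and 0 counts in the PBS libraries. It too needed the groups given IL-36γ to enter the test.

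At the other end, Xcl1 encodes lymphotactin, a chemokine made by NK cells and by T cells such as those of mouse epidermis. It was at 2.67, 2.46 and 1.85 CPM in the IL-17A libraries and at 0.466, 0.548 and 0.448 CPM in the IL-36γ libraries, with 13 to 18 counts per library. The groups did not overlap, the log2 fold change was -2.24 ± 0.22 (adjusted p = 0.000742), and the call held in every fit without 1 library. Cd207 encodes langerin, which defines Langerhans cells of the epidermis. It was at 19.8, 20.4 and 19.6 CPM after IL-17A and at 5.16, 2.47 and 6.58 CPM after IL-36γ (-2.08 ± 0.31, adjusted p = 0.0041), and it too held in every such fit.

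The promoters of 2 of these higher genes and 2 of these lower genes are shown because their genes stand at the 2 ends of the comparison. They are the sequence from 250 bases before to 50 bases after the start site in the RefSeq annotation of GRCm38.p6, 5′ to 3′ on the strand of the gene. Sprr2b is at chr3:92316455-92316754 on the plus strand, Uox at chr3:146596899-146597198 on the plus strand, Xcl1 at chr1:164935473-164935772 on the minus strand and Cd207 at chr6:83677808-83678107 on the minus strand. Capitals mark matches to 3 motifs searched on both strands, GGANTTTCC (NF-κB type), GAAANNGAA (interferon-stimulated response element) and TTCNNNGAA (STAT type), where N is any base. The last reads the same on both strands, and a match to it can overlap a match to either of the others.
Sprr2b: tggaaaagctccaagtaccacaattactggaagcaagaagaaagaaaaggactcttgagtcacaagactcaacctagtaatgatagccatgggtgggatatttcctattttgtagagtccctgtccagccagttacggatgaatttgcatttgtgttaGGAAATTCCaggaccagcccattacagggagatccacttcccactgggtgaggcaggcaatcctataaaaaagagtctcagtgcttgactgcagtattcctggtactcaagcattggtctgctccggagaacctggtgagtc
Uox: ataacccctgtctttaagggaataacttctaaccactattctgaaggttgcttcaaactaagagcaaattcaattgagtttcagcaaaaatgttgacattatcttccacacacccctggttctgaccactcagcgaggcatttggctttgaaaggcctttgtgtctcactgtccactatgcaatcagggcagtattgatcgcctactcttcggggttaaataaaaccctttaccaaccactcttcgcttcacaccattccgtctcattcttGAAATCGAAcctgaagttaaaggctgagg
Xcl1: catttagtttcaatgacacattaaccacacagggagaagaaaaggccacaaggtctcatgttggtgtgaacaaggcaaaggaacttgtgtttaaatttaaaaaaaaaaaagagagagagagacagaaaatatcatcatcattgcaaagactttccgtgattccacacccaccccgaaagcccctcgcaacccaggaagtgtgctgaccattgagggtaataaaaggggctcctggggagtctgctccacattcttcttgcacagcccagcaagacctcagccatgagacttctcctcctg
Cd207: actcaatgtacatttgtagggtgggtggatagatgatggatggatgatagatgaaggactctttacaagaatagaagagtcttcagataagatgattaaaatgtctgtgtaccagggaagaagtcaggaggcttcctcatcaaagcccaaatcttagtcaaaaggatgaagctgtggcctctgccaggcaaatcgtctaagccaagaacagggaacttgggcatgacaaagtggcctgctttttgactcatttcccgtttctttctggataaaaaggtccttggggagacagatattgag
The Sprr2b promoter held 1 match to the NF-κB type motif on the minus strand, 92 bases before the start site. The Uox promoter held 1 match to the interferon-type motif at base 22 after it, and the promoters of Xcl1 and Cd207 held no match to the 3 motifs. Among all 32851 promoters of that table, 1.3% held the NF-κB type motif, 8.6% the interferon type and 8.3% the STAT type. A match is a description of the letters and not a site of binding.

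The genes of the IL-36 family itself were higher after IL-36γ. Of its 6 members, 4 were called higher and none lower, with a median log2 fold change of 1.16 against -0.01 for all genes tested. The 4 lie next to each other on chromosome 2 (GRCm38), with Il1f8 at chr2:24153161-24160519, Il1f9 at chr2:24186476-24193568, Il1f6 at chr2:24215418-24225702 and Il1f5 at chr2:24276954-24283426. Il1f9 encodes IL-36γ, and the injected protein adds no RNA. It was at 42.5, 38.3 and 43.9 CPM in the IL-17A libraries and at 103, 110.1 and 90.2 CPM in the IL-36γ libraries. The log2 fold change was 1.28 ± 0.17 (adjusted p = 0.0035). The PBS libraries, at 36.4 to 41.2 CPM, were near those of IL-17A, which differed from PBS by 0.10 on the log2 scale.

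Il1f6, encoding IL-36α, was at 27.4, 18.6 and 28.4 CPM after IL-17A and at 87.7, 109 and 56.7 CPM after IL-36γ (1.77 ± 0.28, adjusted p = 0.00536). In contrast to Il1f9, it was also higher after IL-17A than after PBS, by 1.37 on the log2 scale, and after IL-36γ by 3.14. Il1f5 encodes the IL-36 receptor antagonist, and it was higher by 1.31 ± 0.17 (adjusted p = 0.00303), so the ligands and the antagonist were both above their IL-17A levels. These 3 genes held in every fit without 1 library. Il1f8, encoding IL-36β, differed by 1.05 ± 0.25 (adjusted p = 0.0288) and lost the call without IL-17A replicate 1 or 2 or IL-36γ replicate 1 or 2, with an adjusted p between 0.0622 and 0.126. The receptor gene Il1rl2 stood at 138, 121 and 105 CPM after IL-17A and 146, 141 and 145 CPM after IL-36γ, and its difference of 0.24 had a 95% interval from 0.06 to 0.43 (adjusted p = 0.0977).

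Of the 13 tested genes of the IL-17 and IL-23 family, Il17c and Il22 were called higher after IL-36γ and none was lower, with a median of 0.18. Both had so few counts after IL-17A that they entered the test through the groups given IL-36γ, and with at least 10 counts required in every library 10 genes of the family were tested and none was called. IL-17C is an IL-17 cytokine made by epithelial cells, and Il17c had 2, 2 and 1 counts in the IL-17A libraries and 16, 19 and 24 counts in the IL-36γ libraries. The ratio was 10.5 with an exact 95% counting interval from 4.24 to 33.4, and the fitted difference of 3.31 ± 0.49 (adjusted p = 0.0041) held in every fit without 1 library. IL-22 is a lymphocyte cytokine that acts on keratinocytes. Il22 had 1, 0 and 0 counts after IL-17A and 5, 39 and 11 counts after IL-36γ, a ratio of 48.8 with an interval from 8.40 to 1960, which covers counting error only. Its adjusted p of 0.0204 became 0.101 without IL-17A replicate 2, 0.0556 without IL-17A replicate 3 and 0.071 without IL-36γ replicate 2, and near-identical sequence of the gene copy Iltifb covered 29.5% of its 76-base windows.

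The genes of the 2 cytokines' receptors differed little. Il17ra was at 31, 29.6 and 32.7 CPM after IL-17A and 38, 43 and 39.6 CPM after IL-36γ, a difference of 0.37 ± 0.08 with an adjusted p of 0.0204 that was under the 2-fold limit. Il17rc differed by 0.18 (adjusted p = 0.202). Il17a itself had no count in the IL-17A libraries and 1, 6 and 0 counts in the IL-36γ libraries, and it was too low to be tested. Il17f, chosen after its values were seen, had means of 0.192 ± 0.0978 and 0.65 ± 0.599 CPM, and its difference of 1.74 did not pass the test (adjusted p = 0.153).

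None of 20 tested genes known as targets of IL-17A was called higher after IL-17A. Of all genes tested 0.366% were, so the absence of such calls says little about the list. After IL-36γ 4 of the 20 were called higher, against 1.25% of all genes tested. The other 16 did not pass, and the median of the list was 0.28. Of those 16, 2 had an unadjusted p below 0.05 with lower values after IL-36γ, and the lowest difference was that of the collagenase gene Mmp13, chosen after its values were seen, at -2.06 (adjusted p = 0.205). Lcn2, which encodes the iron-binding antimicrobial protein lipocalin 2, was at 19.1, 16.5 and 15.2 CPM after IL-17A and at 45.8, 61.2 and 38.7 CPM after IL-36γ (1.52 ± 0.20, adjusted p = 0.00306). The PBS libraries were at 1.85 to 3.57 CPM, so Lcn2 was above PBS after both cytokines, by 2.75 and 4.27 on the log2 scale. The call of Lcn2 held in every fit without 1 library. Defb3 and Defb4 encode beta-defensins, antimicrobial peptides of the epidermis. Defb3 was at 2.03, 0.632 and 0.603 CPM after IL-17A and at 11.7, 26.4 and 3.34 CPM after IL-36γ (3.67 ± 0.84, adjusted p = 0.0235), and Defb4 differed by 3.09 ± 0.75 (adjusted p = 0.0297). IL-36γ replicate 2 was the highest library of both, and without it the adjusted p was 0.101 for Defb3 and 0.13 for Defb4. Both also lost the call without IL-17A replicate 2 or 3, with an adjusted p between 0.0694 and 0.125. Defb4 had 5 counts in IL-17A replicate 2 and 3, 7 and 2 counts in the PBS libraries. It needed the groups given IL-36γ to enter the test. Cxcl1, a chemokine for neutrophils, was at 3.04, 7.48 and 4.71 CPM after IL-17A and at 16.3, 9.26 and 17.7 CPM after IL-36γ (adjusted p = 0.0402, interval of the log2 fold change from 0.64 to 2.35), and it was not called in any of the 6 fits without 1 library, with an adjusted p between 0.0601 and 0.104. The list had 1 called gene, Lcn2, without IL-17A replicate 2, without IL-17A replicate 3 or without IL-36γ replicate 2.

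For 9 of the 20 genes of that list, among them the 4 called, all IL-36γ libraries lay above all IL-17A libraries. For 1 gene they lay below. Of all genes tested, 15.6% lay above and 16.1% below. For some members that were not called the 2 groups overlapped. Nfkbiz encodes IκBζ, a co-activator of IL-17A and IL-36 responses. It was at 59.1, 75.4 and 80.1 CPM after IL-17A and at 75.3, 85.4 and 82.1 CPM after IL-36γ. The difference was 0.18, with a 95% interval from -0.07 to 0.42. Zc3h12a, which encodes the RNase regnase-1, a brake on IL-17A signalling, was at 48.9, 59.7 and 71 CPM after IL-17A and at 50.1, 61.8 and 51.6 CPM after IL-36γ. Its difference of -0.13 had an interval from -0.46 to 0.19, and it was above PBS after each cytokine, by 1.53 after IL-17A and by 1.39 after IL-36γ. Both intervals lie within a 2-fold difference in either direction. For Cxcl5, Csf3 and Il19 of that list the groups overlapped too, but the intervals were wide, from -2.37 to 1.07 for Cxcl5. The interval of Il1b, which encodes the inflammatory cytokine IL-1β, ran from -1.78 to 1.66. Il1b stood at 60.3, 11.5 and 9.94 CPM after IL-17A and at 18.6, 41.6 and 18.1 CPM after IL-36γ, a difference of -0.06 that was positive without IL-17A replicate 1 (adjusted p = 0.374), without IL-36γ replicate 1 or without IL-36γ replicate 3.

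S100a8 and S100a9 encode the 2 chains of calprotectin, an antimicrobial protein of neutrophils and of stressed keratinocytes. S100a9 was at 456, 211 and 385 CPM after IL-17A and at 1865, 2818 and 1299 CPM after IL-36γ. All 3 IL-36γ libraries were higher, but the difference of 2.51 ± 0.74 did not pass the test (adjusted p = 0.0577), and nor did that of S100a8, 2.37 ± 0.72 (adjusted p = 0.0642). Both passed in 5 of 15 alternatives, among them both fits with DESeq2, and in none of the 6 fits without 1 library. Of 22 tested genes of antimicrobial and acute-phase proteins, 7 were called higher and none lower, with a median of 1.04. Ltf, which encodes the iron-binding protein lactoferrin and was chosen after its values were seen, differed by -2.82 (adjusted p = 0.05385), and both fits with DESeq2 and edgeR without a filter called 1 member lower. Besides Lcn2 and the defensins, the genes called higher were Saa1, Saa3, Chil1 and Cfb. Saa3, an acute-phase serum amyloid A made in tissue, was at 30.4, 11.1 and 20.4 CPM after IL-17A and at 141, 168 and 139.6 CPM after IL-36γ (2.86 ± 0.34, adjusted p = 0.00198). Chil1, a chitinase-like secreted protein, was at 130.3, 127 and 139 CPM after IL-17A and at 613, 714 and 506 CPM after IL-36γ (2.21 ± 0.20, adjusted p = 0.000742). Cfb, complement factor B, differed by 1.13 ± 0.14 (adjusted p = 0.0022), and a read-through gene model covers 79.5% of its exons, so its counts are uncertain. Saa1, Saa3, Chil1 and Cfb held in every fit without 1 library, and 5 to 8 genes of the list were called in these fits.

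Genes of the response to interferons were higher after IL-36γ as a group. Of 37 tested, 13 were called higher and none lower, with a median of 1.21. Of all genes tested, 1.25% were called higher. For 35 of the 37 all IL-36γ libraries lay above all IL-17A libraries, against 15.6% of all genes tested. At an adjusted p below 0.05 without a limit on the fold, 20 passed, against 848 higher genes among all 19408 tested. Oas1a, which encodes a sensor of double-stranded RNA, was at 3.31, 2.09 and 2.33 CPM after IL-17A and at 15.6, 17.7 and 11.9 CPM after IL-36γ (2.55 ± 0.28, adjusted p = 0.00124), although 47.3% of its 76-base windows are shared with Oas1g. Irf7, a transcription factor that amplifies type I interferon, was at 20.9, 9.87 and 10.5 CPM after IL-17A and at 48.1, 70 and 43.8 CPM after IL-36γ (1.97 ± 0.32, adjusted p = 0.00631). Irf7 in the PBS libraries was at 6.91 to 12.4 CPM. Bst2, the antiviral membrane protein tetherin, differed by 1.27 ± 0.21 (adjusted p = 0.00621), and these 3 genes held in every fit without 1 library. Usp18, which dampens interferon signalling, differed by 1.36 ± 0.27 (adjusted p = 0.0138) and lost the call without IL-17A replicate 2 (adjusted p = 0.0714) or IL-36γ replicate 2 (adjusted p = 0.0607).

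The remaining 24 members of the interferon list were not called. Gbp2, a guanylate-binding protein induced by interferon-γ and chosen after its values were seen, was at 26.1, 18.3 and 17.1 CPM after IL-17A and at 53, 72.2 and 44.9 CPM after IL-36γ, and did not pass (1.47 ± 0.43, adjusted p = 0.055), although it passed in 6 of 15 alternatives, among them both fits with DESeq2. Cxcl9 and Cxcl10, chemokines that interferon-γ induces, did not pass either, with differences of 1.89 (adjusted p = 0.144) and 0.25 (adjusted p = 0.859). The number of list members called was 3 without IL-17A replicate 2 or without IL-36γ replicate 2, 5 without IL-17A replicate 3 and 16 without IL-17A replicate 1, while the median stayed between 0.97 and 1.41. The number called was 19 with DESeq2 on all 12 libraries, 23 with DESeq2 on the 6 libraries of the 2 groups and 21 with edgeR without a filter.

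**Figure D2:**
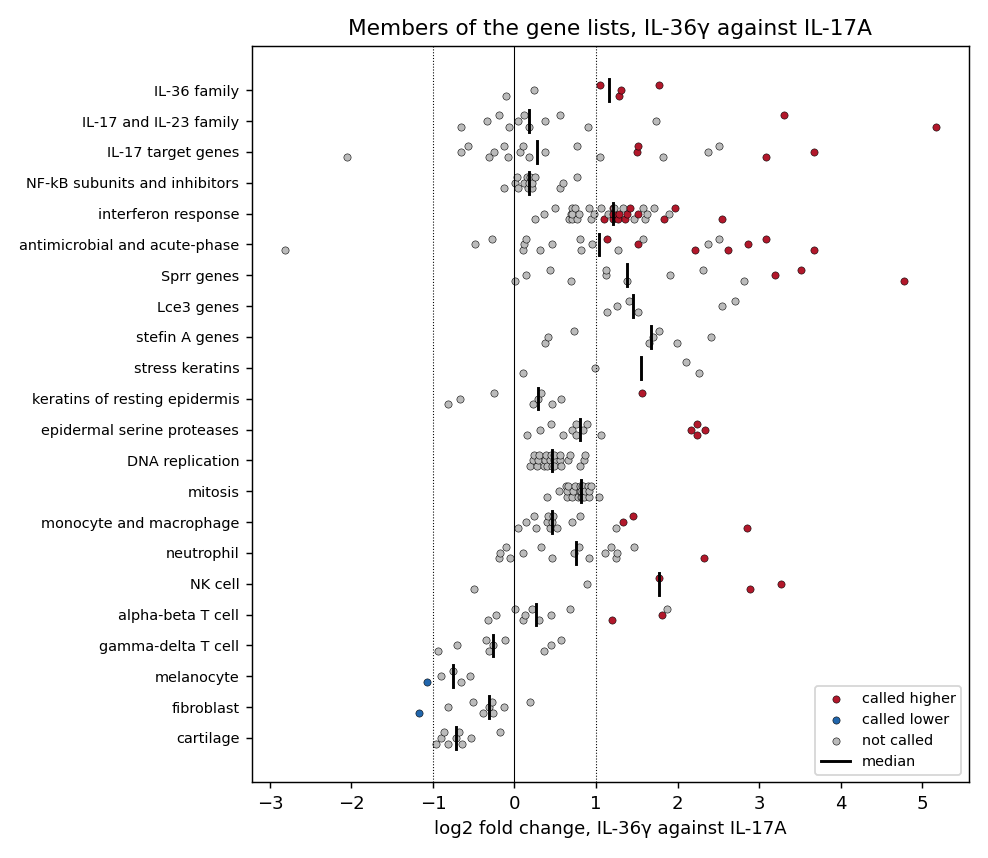
Log2 fold change of IL-36γ against IL-17A for each tested member of 22 gene lists, with 1 point per gene and a black bar at the median of the list. Dotted lines mark a 2-fold difference. The interferon list lies almost wholly to the right of 0 with 13 members called, the 25 mitosis genes lie between 0.40 and 1.04 with none called, and the melanocyte genes lie to the left of 0.

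In the lists of Sprr genes, stefins, Lce3 genes and stress keratins few members passed, and the number called was highest without IL-17A replicate 1 among the fits without 1 library. Of 13 tested Sprr genes, 3 were called higher (Sprr2b, Sprr2d and Sprr2i), all on chromosome 3, with a median of 1.38. The list summed to 258, 69.1 and 82.2 CPM in the IL-17A libraries and to 397, 606 and 266 CPM in the IL-36γ libraries, and without IL-17A replicate 1 the number called was 10 with a median of 3.59. Sprr2i lost the call without IL-17A replicate 2 or 3 or IL-36γ replicate 1 or 2. Of the 8 stefin A genes, inhibitors of cysteine proteases, none was called, and the list summed to 485, 32.9 and 95.9 CPM after IL-17A and to 722, 1015 and 494 CPM after IL-36γ. Without IL-17A replicate 1, 5 of the 8 were called and the median changed from 1.67 to 3.62. The 6 Lce3 genes, late cornified envelope genes of repairing epidermis, followed the same libraries, at 70.6, 7.61 and 10.3 CPM against 91.6, 161 and 32.3 CPM, with none called, or 2 without IL-17A replicate 1.

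The keratins of stressed epidermis were among these. Krt16 was at 729.6, 133 and 141 CPM after IL-17A and at 1283, 2119 and 916 CPM after IL-36γ. The groups did not overlap, but the difference of 2.11 ± 0.82 did not pass (adjusted p = 0.132). Without IL-17A replicate 1 it was 3.41 (adjusted p = 0.0421). Of the 76-base windows of Krt16, 28.7% are shared with other genes, among them Krt14. Krt6a, chosen after its values were seen, overlapped between the groups, with IL-17A replicate 1 at 504 CPM and IL-36γ replicate 3 at 210 CPM, and 50.8% of its 76-base windows are shared with other genes. Lce3a and Lce3b likewise overlapped, with differences of 2.71 (adjusted p = 0.116) and 2.54 (adjusted p = 0.166). No member of the lists of stress keratins, Lce3 genes and stefins was called in either direction by edgeR in the fit of all libraries, and 1, 2 and 3 of their members had an unadjusted p below 0.05. DESeq2 on all 12 libraries called 1 stefin, DESeq2 on the 6 libraries called 1 stefin and 1 stress keratin, and edgeR without a filter called 1 stefin and 1 Lce3 gene.

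Among keratins of resting epidermis, Krt1, the keratin of the suprabasal layers, was called higher. It was at 1812, 631 and 1035 CPM after IL-17A and at 4144, 4248 and 1938 CPM after IL-36γ (1.57 ± 0.38, adjusted p = 0.0299), and it lost the call without IL-17A replicate 2 or 3 or IL-36γ replicate 1 or 2. Its partner Krt10 differed by 0.57 (adjusted p = 0.0987). Krt15, a keratin of basal cells and the follicle, chosen after its values were seen, had a difference of -0.67 (adjusted p = 0.02025) and was under the 2-fold limit. Of 14 serine proteases of the epidermis, which cut the contacts of cornified cells and activate cytokines, 4 were called higher and none lower, with a median of 0.80. They were Klk6, Klk9 and Klk13, which lie within 1 cluster on chromosome 7, and Prss27. Klk9 was at 29.3, 13.7 and 17.3 CPM after IL-17A and at 98, 127 and 59.5 CPM after IL-36γ (2.24 ± 0.39, adjusted p = 0.00947). Prss27 differed by 2.24 ± 0.41 and Klk13 by 2.34 ± 0.47. Klk6 differed by 2.16 ± 0.50. None of the list was called without IL-17A replicate 2 and 1 without IL-36γ replicate 2.

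Rptn, Tgm3 and Casp14 were called among 19 other genes of the cornified envelope, with a median of 0.69. Rptn encodes repetin, a precursor of the envelope, and was at 249, 62.8 and 97.1 CPM after IL-17A and at 739, 1211 and 334 CPM after IL-36γ (2.48 ± 0.53, adjusted p = 0.0182). Tgm3, a transglutaminase that cross-links the envelope, differed by 1.01 ± 0.18, and Casp14, a caspase of terminal differentiation, by 1.11 ± 0.26. None of the 3 was called without IL-17A replicate 2 or without IL-36γ replicate 2. Of 9 tested Serpinb genes, Serpinb3a was called, at 1.76 ± 0.37, and lost the call without IL-17A replicate 2 or IL-36γ replicate 2.

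**Figure D3:**
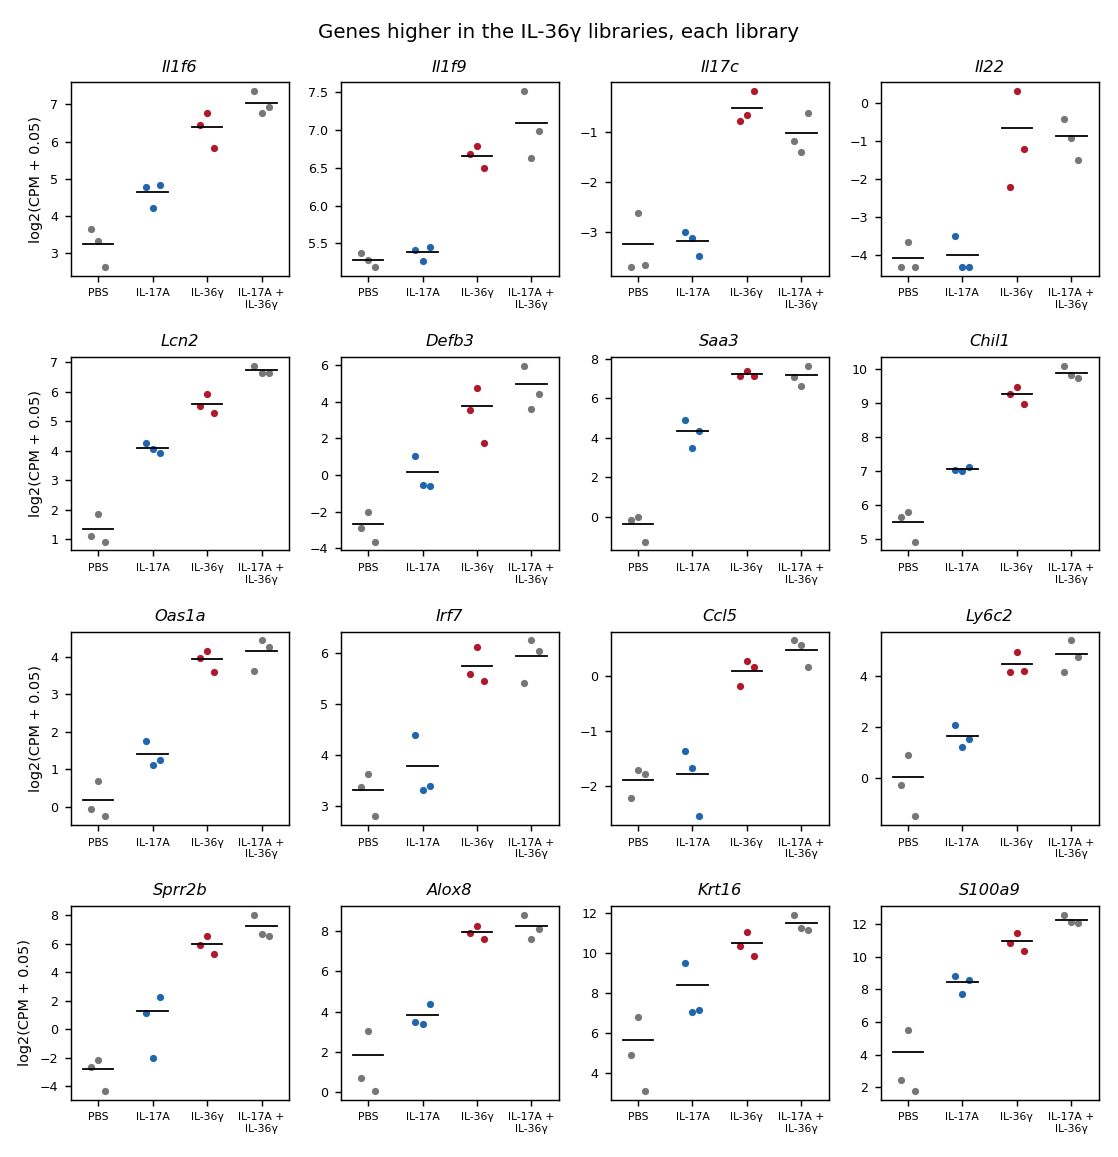
Level of 16 genes in each library, as log2 of CPM plus 0.05, with 1 point per library and a bar at log2 of the mean CPM plus 0.05. IL-17A is in blue, IL-36γ in red and the background groups in grey. In each panel the 3 red points lie above the 3 blue points, and for Il1f9, Il17c and Ccl5 the blue points lie near those of PBS.

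Genes of mitosis and of DNA replication had positive differences, and none was called by edgeR. Of 25 mitosis genes, 9 had an adjusted p below 0.05 without a limit on the fold, and 24 had an unadjusted p below 0.05, all higher after IL-36γ. DESeq2 called 1 of them, on all 12 libraries or on the 6 of the 2 groups. By edgeR, 2380 of all 19408 genes tested were higher at an unadjusted p below 0.05 and 848 at an adjusted p below 0.05. For all 25 mitosis genes, the 3 IL-36γ libraries lay above the 3 IL-17A libraries, against 15.6% of all genes tested. The median of the mitosis genes was 0.82. The list summed to 1447, 1144 and 1419 CPM after IL-17A and to 2247, 2481 and 2162 CPM after IL-36γ. Mki67, a protein of cycling cells, was at 354, 282 and 349.7 CPM after IL-17A and at 568, 615 and 569 CPM after IL-36γ (0.83 ± 0.23, adjusted p = 0.0452). Of 24 genes of DNA replication none was called, 7 had an adjusted p below 0.05 and the median was 0.45, with Mcm5, a helicase subunit, at 0.68 ± 0.17 (adjusted p = 0.0362). Both examples were chosen after their values were seen.

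Markers of several immune cells were also higher in the IL-36γ libraries. Of 16 markers of monocytes and macrophages, 3 were called higher and none lower, with a median of 0.46. The list summed to 2082, 1524 and 1734 CPM after IL-17A and to 2629.8, 2419.8 and 2367 CPM after IL-36γ. Adgre1, which encodes the macrophage antigen F4/80, was at 69.2, 50.7 and 57.6 CPM after IL-17A and at 159.7, 147 and 141 CPM after IL-36γ (1.33 ± 0.12, adjusted p = 0.000742). Ly6c2, a surface protein of inflammatory monocytes, differed by 2.85 ± 0.44 (adjusted p = 0.00503), and Itgam, the integrin CD11b of myeloid cells, by 1.46 ± 0.23 (adjusted p = 0.00577). All 3 genes held in every fit without 1 library. A read-through gene model covers 68.7% of the exons of Itgam.

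Of 16 neutrophil markers, edgeR called Retnlg, with a median of 0.76, and DESeq2 called 2 on all 12 libraries and 3 on the 6. Retnlg, a resistin-like protein of neutrophils, was at 0.977, 0.665 and 0.845 CPM after IL-17A and at 2.63, 4.39 and 5.44 CPM after IL-36γ (2.32 ± 0.48, adjusted p = 0.016), and lost the call without IL-17A replicate 2 or IL-36γ replicate 2. Cxcr2, the receptor for the chemokines that attract neutrophils, was at 25.8, 10.8 and 14.6 CPM after IL-17A and at 21.8, 25.8 and 17 CPM after IL-36γ, overlapping values with a difference of 0.33 and an interval from -0.36 to 1.03. Csf3r, the receptor for G-CSF, differed by 1.19 ± 0.38 (adjusted p = 0.0712) and passed in 4 of 15 alternatives, which were both fits with DESeq2, no filter and the fit without IL-17A replicate 1. Ly6g, the defining antigen of mouse neutrophils, was at or under 0.241 CPM in all 6 libraries. The summed list was at 168 to 265 CPM after IL-17A and at 204 to 252 CPM after IL-36γ, so the groups overlapped.

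Genes of lymphocytes were low in all libraries. Of 12 tested markers of alpha-beta T cells, 2 were called higher, with a median of 0.26 and a lowest difference of -0.32. Trac, the constant chain of the alpha-beta T cell receptor, was at 0.977, 0.864 and 0.563 CPM after IL-17A and at 2.06, 1.77 and 1.76 CPM after IL-36γ (1.20 ± 0.22, adjusted p = 0.0112), and lost the call without IL-17A replicate 2 (adjusted p = 0.0525). Cd6, a co-receptor of T cells, was called too, at 1.81 ± 0.39, and lost the call without IL-17A replicate 2 or IL-36γ replicate 2. Of 5 tested NK cell markers, 3 were called: Ncr1, the receptor NKp46 of NK cells, and the granzyme genes Gzma and Gzmb. Ncr1 and Gzma had so few counts after IL-17A that they entered the test through the groups given IL-36γ, and with at least 10 counts required in every library 1 marker was tested, with a difference of -0.49, and none was called. Ncr1 had 2 counts in each IL-17A library and 17, 47 and 6 counts in the IL-36γ libraries, a ratio of 10.4 with a counting interval from 4.52 to 29.2. Gzma was at 0.263, 0.133 and 0.0805 CPM after IL-17A and at 1.13, 1.95 and 0.516 CPM after IL-36γ (2.89 ± 0.58, adjusted p = 0.0148), and no NK cell marker was called without IL-17A replicate 2 or without IL-36γ replicate 2. Foxp3, which defines regulatory T cells and was chosen after its values were seen, had a difference of 1.91 ± 0.47 (adjusted p = 0.0309). It was not called in any of the 6 fits without 1 library. With 6, 6 and 2 counts after IL-17A, it entered the test through the groups given IL-36γ. Other genes, most of them on the other strand, overlap 31.5% of its exons, so its counts are uncertain.

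Of 18 CC chemokine genes, Ccl5 and Ccl17 were called higher, with a median of 0.24. Ccl5 attracts T cells and monocytes. It was at 0.338, 0.266 and 0.121 CPM after IL-17A and at 0.832, 1.16 and 1.07 CPM after IL-36γ (2.04 ± 0.32, adjusted p = 0.0053), and it held in every fit without 1 library. Ccl5 had 9, 8 and 3 counts after IL-17A, so it entered the test through the groups given IL-36γ. Ccl17, a chemokine of dendritic cells, stood at 0.902, 0.366 and 0.483 CPM after IL-17A, at 1.33, 1.71 and 3.27 CPM after IL-36γ and at 0.775 to 1.87 CPM after PBS. Its difference of 1.85 ± 0.51 (adjusted p = 0.047) lay between a group below PBS by 0.98 and a group above it by 0.87, neither of which passed the test against PBS, and it lost the call without any single library except IL-17A replicate 1. Ccl20, a chemokine for CCR6-bearing cells, differed by 1.82 (adjusted p = 0.0976). Of 7 markers of B and plasma cells, 3 had enough counts to be tested. Cd79b and Ighm were called, at 1.65 ± 0.28 and 1.02 ± 0.15, and the lowest difference was 0.17. Of 6 markers of eosinophils and basophils, 3 were tested, and Ccr3, a receptor of eosinophils, was called at 1.65 ± 0.37. Cd79b, Ighm and Ccr3 each lost the call without at least 1 of IL-17A replicates 1, 2 and 3.

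Of the 10 genes with the largest negative differences, named by rule, none was called for IL-17A against PBS. For IL-36γ against PBS, 9 were called lower. Both comparisons share libraries with the one described here. The genes were also chosen for low values after IL-36γ, so these counts are no separate result. Cd207 stood at 14.4 to 24.1 CPM after PBS, beside 19.6 to 20.4 CPM after IL-17A. Nptx1, a neuronal pentraxin, was at 5.33, 7.41 and 5.15 CPM after IL-17A, at 1.2, 1.16 and 2.17 CPM after IL-36γ and at 2.74 to 4.39 CPM after PBS (-1.99 ± 0.26, adjusted p = 0.00326). Nptx1 held in every fit without 1 library, as did the olfactory receptor gene Olfr465-ps1 at -2.02 ± 0.26. The symbol of Olfr465-ps1 is that of a pseudogene, but the annotation used lists it as protein coding.

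P2rx2, an ATP-gated channel, was at 5.03, 7.15 and 6.72 CPM after IL-17A and at 1.06, 0.64 and 2.55 CPM after IL-36γ (-2.16 ± 0.41, adjusted p = 0.0123). The gene model F830045P16Rik had the largest negative difference of those at 1 CPM or more, -2.75 ± 0.52 (adjusted p = 0.0117). Both were at an adjusted p of 0.0625 without IL-17A replicate 2, and at 0.0528 and 0.0525 without IL-36γ replicate 2. Sucnr1, the succinate receptor, differed by -1.62 ± 0.30 (adjusted p = 0.0119) and lost the call without either of the same libraries. Cyp4f37 at -1.80, a cytochrome P450, and Bhmt at -1.71, betaine-homocysteine methyltransferase, lost the call without any single library, except that Bhmt kept it without IL-17A replicate 3, and 11.2% and 21.4% of their 76-base windows are shared with other genes. Calls chosen after their values were seen were Mrgpra9, a receptor of the Mas-related family, Serpina3b and Wfdc21. Mrgpra9 had 18, 20 and 23 counts after IL-17A and 2, 3 and 1 counts after IL-36γ, a ratio of 11.5 in favour of IL-17A with a counting interval from 4.97 to 32.4. It entered the test through the PBS and IL-17A groups. Serpina3b, a serine protease inhibitor, was at 140.3, 139 and 113 CPM after IL-17A and at 61.7, 39.2 and 69.9 CPM after IL-36γ (-1.20 ± 0.20, adjusted p = 0.0065), and its difference was -0.99 without IL-36γ replicate 2. Wfdc21, a secreted protein of the whey acidic protein family, differed by -1.01 ± 0.22 and lost the call in 8 of 15 alternatives, among them the fits without IL-17A replicate 2, IL-17A replicate 3 or IL-36γ replicate 2.

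**Figure D4:**
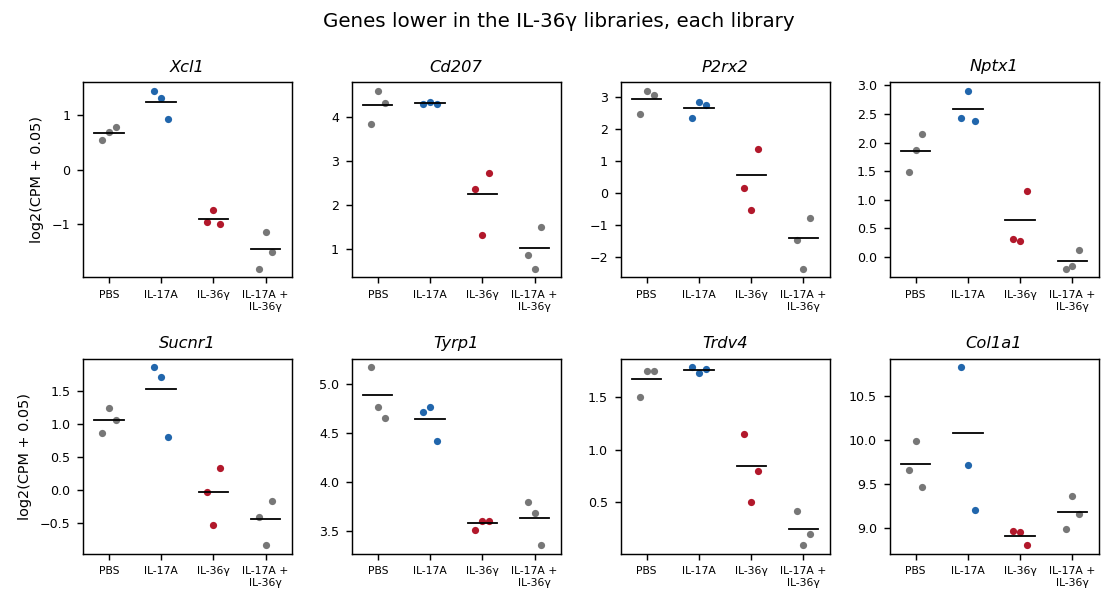
Level of 8 genes in each library, as log2 of CPM plus 0.05, with 1 point per library and a bar at log2 of the mean CPM plus 0.05. In each panel the 3 IL-36γ points (red) lie below the 3 IL-17A points (blue), and for Cd207 the IL-17A points lie within the range of PBS. For Col1a1 the IL-17A points spread from 586 to 1814 CPM.

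Cd207 was the only called gene of 12 markers of Langerhans and dendritic cells, and the median of the list was -0.10. The list summed to 865 to 954 CPM after IL-17A and to 711 to 854 CPM after IL-36γ, so the sums did not overlap. Epcam, another protein of Langerhans cells that keratinocytes of the follicle share, was at 99.6 to 119.8 CPM and 113 to 145 CPM, a difference of 0.18 with an interval from -0.08 to 0.44. Cd74, the invariant chain of antigen presentation, differed by -0.26 (adjusted p = 0.278). Among 9 tested markers of gamma-delta T cells none was called, and 4 had an unadjusted p below 0.05 in the direction of lower values after IL-36γ against 1 in the other. Trdv4, the receptor segment of gamma-delta T cells of the epidermis, was at 3.38, 3.26 and 3.34 CPM after IL-17A and at 2.16, 1.37 and 1.69 CPM after IL-36γ. Its difference of -0.94 ± 0.18 had an adjusted p of 0.0123 but was under the 2-fold limit, and that of Trdc, the constant chain, was -0.70 ± 0.16 (adjusted p = 0.0232). Epcam, Cd74, Trdv4 and Trdc were chosen after their values were seen.

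Of 5 melanocyte genes, Tyrp1 was called lower, and all 5 had an adjusted p below 0.05 with lower values after IL-36γ. Tyrp1, an enzyme of melanin synthesis, was at 26.2, 27.1 and 21.3 CPM after IL-17A and at 11.3, 12.1 and 12.1 CPM after IL-36γ (-1.07 ± 0.15, adjusted p = 0.00376), and it fell just under the 2-fold limit without IL-17A replicate 2. The list summed to 78.4 to 89.6 CPM after IL-17A and 47.2 to 51.6 CPM after IL-36γ. Col1a1, a chain of type I collagen, was the only fibroblast gene of 9 that was called, at 1814, 838 and 586 CPM after IL-17A against 497, 496 and 447 CPM after IL-36γ (-1.17 ± 0.31, adjusted p = 0.0432). IL-17A replicate 1 was the highest library, and without it the difference was -0.56 (adjusted p = 0.0902). Of the 6 fits without 1 library, Col1a1 kept the call in the one without IL-17A replicate 3. The 9 tested cartilage genes had a median of -0.72 and the 6 of red blood cells one of -1.07, with none called by edgeR. Of the red blood cell genes, 3 were called lower by DESeq2 on all 12 libraries, by DESeq2 on 6 and by edgeR without a filter. Without IL-17A replicate 3, 4 of the cartilage genes and without IL-36γ replicate 1, 1 of them were called lower, and without IL-17A replicate 1, 5 of the red blood cell genes. The part of cartilage and blood in the other results was not tested.

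The combination of both cytokines against PBS shares no library with the direct comparison. Both came from 1 fit of all 12 libraries and share its estimate of each gene's spread. The 2 sets of calls are therefore not independent. Of the 242 genes called higher after IL-36γ than after IL-17A, 222 (91.7%) were called higher after IL-17A + IL-36γ than after PBS and none was called lower. In all genes tested, 7.35% were called higher in that comparison and 6.06% lower. Of the 71 called lower, 57 (80.3%) were called lower and none higher. The median log2 fold change of the combination against PBS was 2.32 for the first group, -1.94 for the second and -0.03 for all genes tested. Ccl17 was among the 20 higher genes that were not called in the combination, at -0.56. Cd207 was at 1.79, 1.43 and 2.78 CPM after the combination, which overlapped the IL-36γ libraries, and Xcl1 was at 0.234, 0.402 and 0.301 CPM.

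**Figure D5:**
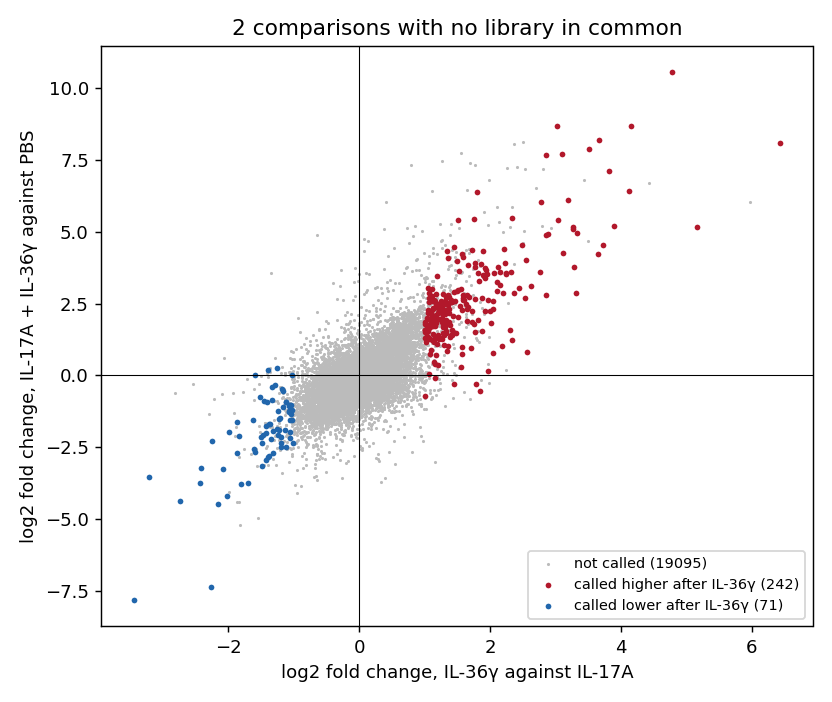
Log2 fold change of IL-17A + IL-36γ against PBS plotted against that of IL-36γ against IL-17A, for all genes tested. The 2 axes use different libraries. Of the 242 genes called higher after IL-36γ (red) most lie above 0 on the vertical axis, and of the 71 called lower (blue) most lie below 0.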

How the data were processed

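RNA of mouse ears was sequenced as paired reads of 76 and 76 cycles from stranded, ribosomal RNA-depleted libraries. Per the submitters' processing notes and the study's methods, the authors used bcl2fastq, FastQC, STAR 2.5.2b with the mm10 genome and featureCounts of Subread 1.5.1. The strand setting of the counting is not given in the sources used here. The values used were the deposited raw counts per gene, with 0 columns of per-sample values left unused. The authors also deposited 5 tables of their own comparisons made with DESeq2 1.30.0, which hold log2 fold changes, p-values and adjusted p-values and were not used.

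Of 50684 genes listed, 19408 passed edgeR's filterByExpr with a minimum count of 10. Counts were scaled by TMM and all 12 libraries were fitted with 4 group means by the quasi-likelihood test of edgeR 4.0.16 (R 4.3.3, limma 3.58.1), with Benjamini-Hochberg adjustment over all genes tested. Calls needed an adjusted p below 0.05 and a log2 fold change beyond 1 in either direction. The standard error is the log2 fold change divided by the square root of F. The common biological coefficient of variation was 14.2%. Ratios of genes with few counts carry exact intervals that cover counting error only. Depth is given with the results. Each library is from an individual mouse, so p-values measure the spread between mice.

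Genes named by rule were the 10 called genes with the largest change in each direction whose groups did not overlap and whose mean reached 1 CPM, up to 4 called members of each list, and a set of cytokine, receptor and epidermal genes whatever their values. Comparisons, lists and named genes were chosen with earlier results of these data known, and genes said to be chosen after their values were seen were added later. Copies were searched as shared windows of 76 bases. The fitting was tested on simulated data. Alternatives were DESeq2 1.42.0, other scalings and filters, fewer libraries, a replicate block and leaving out each library in turn. Some items are not reported here.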

Additional observations from a re-analysis of the deposited data

How the results depend on the processing

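None of the 313 calls that could be tested changed direction under the alternatives tried. This was largely fixed beforehand, since the 2 groups did not overlap for 312 of the 313. Among named genes not called, the difference of Il1b, Cxcl5, Cxcl10, Csf3, Il19, Zc3h12a and Stfa2 changed sign in at least 1 alternative, and so did the median of the neutrophil-attracting chemokines. With DESeq2 on all 12 libraries 513 genes were called (371 higher, 142 lower), among them all 313, and with DESeq2 on the 6 libraries of the 2 groups 651 (462 higher, 189 lower). On data simulated with the spreads that edgeR had estimated, DESeq2 as run here made more false calls than edgeR. That setting can favour edgeR, so it does not tell which number of calls is nearer the truth. Without a limit on the fold 1548 genes passed (848 higher, 700 lower). With at least 10 counts required in every library 219 were called, of which 40 were lower. The other scalings, no filter, and edgeR on the 6 libraries alone gave 315 to 403 calls. Without 1 library at a time the calls ranged from 69 to 369, those higher from 54 to 306 and those lower from 14 to 89. The lowest counts of calls were 69 without IL-17A replicate 2 and 83 without IL-36γ replicate 2, and the cause was not tested. Of the 313 genes, 57 were called without each library in turn and 42 in every alternative. A gene that was not tested in an alternative counted as not called in it. With at least 10 counts in every library, the 213 of the 313 that could be tested were all called. The share of higher genes among the calls was 77.3%, and 64.5% without IL-17A replicate 3. Same-numbered libraries of the 2 groups deviated with correlations of 0.123, -0.177 and 0.087. Those of different numbers ran from -0.248 to 0.234. These values show no pairing by number, but 3 libraries per group cannot settle it. The fit with the replicate number as a block called 328 genes (254 higher, 74 lower) on all 12 libraries and 248 (197 higher, 51 lower) on 6. Over the named genes, 1413 values kept their side of the threshold, 165 lost the call and 35 gained one. Genes of a few counts, such as Il22, Ncr1 and U90926, are limited by depth.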
